A study of Caenorhabditis elegans with 2 samples.

Results

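In late embryos of Caenorhabditis elegans, 4 SL2 spliced leader RNA genes, sls-2.4, sls-2.1, sls-2.2 and sls-2.8, held the peaks of RNA polymerase II ranked just after the highest in a ChIP-seq experiment. They were selected on that readout: an SL2 RNA gene was taken where it stood at one of the highest peaks of the list thresholded by the irreproducible discovery rate (IDR), which left 4 of the 18 annotated SL2 RNA genes and 4 of 46890 annotated genes. Their ranks and heights are therefore a description and carry no test. An antibody labelled ama-1 was used to precipitate AMA-1, which is the large catalytic subunit of that polymerase, from whole worms of strain N2, a wild isolate, as a mixed-sex population at the late embryonic stage with age unknown and no protocol provided. The 2 samples are labelled biological replicates 1 and 2 and form 1 group, with no other genotype, treatment or stage and no control sample analysed here. A whole embryo mixes all tissues, so polymerase in a few cells with much of it and in many cells with little cannot be told apart. On build ce11, sls-2.4 (WBGene00004836) lies at chrI:4172206-4172315, sls-2.1 (WBGene00004833) at chrII:5844865-5844974, sls-2.2 (WBGene00004834) at chrII:5543598-5543707 and sls-2.8 (WBGene00004840) at chrIII:12250465-12250575, all on the forward strand and each annotated as an snRNA gene.

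Many nematode messenger RNAs begin with a short leader that is not encoded beside them. The leader is the first part of a small capped RNA transcribed by RNA polymerase II, the SL RNA, which carries Sm proteins like a spliceosomal snRNA, donates its leader by trans-splicing and is used up in the reaction. SL1 goes to most trans-spliced messages, whereas SL2 and its variants go mainly to the downstream genes of operons, where trans-splicing is coupled to 3′ end formation of the gene upstream. Genes of this kind have promoters with a proximal sequence element bound by the SNAP complex in place of the elements of protein-coding genes.

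The sequences of 3 of the 4 genes, with that of sls-2.3, which lies beside sls-2.2, are given first, because the heights described afterwards can be read against how nearly alike these genes are. Each run starts 100 bases upstream of the gene and ends at its last base, 5′ to 3′ on the gene's strand, from the RefSeq genome of build ce11. Capitals mark, in order, a 15-letter word upstream, which sls-2.8 lacks, the leader, and the letters TTTTGG, which resemble the Sm-binding region of SL RNAs. The intervals are chrII:5844765-5844974 on the forward strand for sls-2.1, chrII:5543498-5543707 on the forward strand for sls-2.2, chrII:5544164-5544373 on the reverse strand for sls-2.3 and chrIII:12250365-12250575 on the forward strand for sls-2.8.
sls-2.1: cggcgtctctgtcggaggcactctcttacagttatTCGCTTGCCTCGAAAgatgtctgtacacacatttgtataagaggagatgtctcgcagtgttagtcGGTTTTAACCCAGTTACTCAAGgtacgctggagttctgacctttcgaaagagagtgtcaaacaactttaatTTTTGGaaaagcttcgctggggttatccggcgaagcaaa
sls-2.2: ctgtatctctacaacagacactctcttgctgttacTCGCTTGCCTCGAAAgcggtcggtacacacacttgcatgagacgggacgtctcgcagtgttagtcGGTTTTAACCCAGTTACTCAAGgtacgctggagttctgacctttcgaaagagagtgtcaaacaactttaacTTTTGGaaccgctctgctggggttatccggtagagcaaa
sls-2.8: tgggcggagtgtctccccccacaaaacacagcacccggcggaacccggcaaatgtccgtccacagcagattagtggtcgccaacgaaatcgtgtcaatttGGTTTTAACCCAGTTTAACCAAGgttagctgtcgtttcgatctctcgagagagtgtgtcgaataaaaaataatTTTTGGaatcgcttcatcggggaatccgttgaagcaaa
sls-2.3: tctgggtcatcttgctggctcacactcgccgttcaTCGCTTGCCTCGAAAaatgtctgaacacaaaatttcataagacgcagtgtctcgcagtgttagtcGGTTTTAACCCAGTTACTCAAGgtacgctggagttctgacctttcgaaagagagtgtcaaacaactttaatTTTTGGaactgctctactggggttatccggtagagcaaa

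The leader was read as the stretch from the gene's first base to the first AG that is followed by GT after base 15. By this reading sls-2.4, sls-2.1 and sls-2.2 had the same 22-base leader, which sls-2.3 also had. In sls-2.8 the leader was 23 bases long and was found in no other of the 18 SL2 RNA genes. Leaders of their own were likewise read in sls-2.9, sls-2.14, sls-2.15, sls-2.16, sls-2.17 and sls-2.18. The 18 SL2 RNA genes together held 11 different leaders of 21 to 23 bases.

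The genes with the shared leader were alike over their whole length. Between the 6 pairs of sls-2.4, sls-2.1, sls-2.2 and sls-2.3, identity in a global alignment was 94.2% ± 2.51 (SD over pairs; range 90.9 to 97.3%), and between sls-2.8 and the other 3 genes at the highest peaks it was 72.7% ± 1.28 (71.6 to 74.1%). All 153 pairs of SL2 RNA genes gave 77.6% ± 6.7, so sls-2.8 was no nearer to the other 3 than SL2 RNA genes usually were to each other. With positions counted from 1 at the gene's first base and the base of the first-named gene first, sls-2.2 and sls-2.3 differed by 3 substitutions, C71T, C81T and G87A. Between sls-2.1 and sls-2.2 there were 8, T71C, A80C, A81C, T85C, C86T, C102T, G103A and A104G, all of them behind the leader and in the 3′ part of the gene. Sm-like letters stood at the same place throughout: TTTTGG began at base 72 in sls-2.4, sls-2.1, sls-2.2 and sls-2.3 and at base 74 in sls-2.8, and 17 of the 18 SL2 RNA genes held it. On either strand, 16.3% of the first 110 bases of 46882 annotated genes held these 6 letters.

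Upstream of the genes the likeness was lower. Over the 100 bases before the gene, the 6 pairs with the shared leader were 72.2% ± 4.34 identical, sls-2.8 and the other 3 genes 51.0% ± 1.72, and all SL2 pairs 56.0% ± 9.35. The longest run of letters that sls-2.4, sls-2.1 and sls-2.2 shared there was the 15-letter word TCGCTTGCCTCGAAA, which began 65 bases before the gene in each of them and in sls-2.3. Searched on both strands, it was in 4 of 46876 upstream windows of 100 bases (0.00853%), those of these 4 genes. The 4 genes at the highest peaks shared no upstream word longer than 5 letters. One was ACACA, found on either strand in 18.1% of all upstream windows. Another, CGAAA, is the end of the 15-letter word in the genes that have it and was in 28.1% of windows. The last, GTCTC, was in 10.3% of windows. A match of letters describes the sequence and does not show that a factor binds there.

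The 4 genes took ranks 2 to 5 of the 476 IDR peaks by signal value, the caller's height for a peak, which has no stated scale and is compared here only within a list. The IDR list was the top of the list pooled from both replicates, peak for peak, so the IDR and pooled values below are the same and each replicate's own list of 30000 peaks is the separate measurement. The signal value at sls-2.4 was 717.5 in replicate 1 and 92.24 in replicate 2, rank 2 in both lists, and 808.3 in the IDR list. At sls-2.1 it was 567.6 (rank 3) in replicate 1, 64.79 (rank 4) in replicate 2 and 635.9 (rank 3) in the IDR list. These values were close to those of sls-2.2, at 551.2 (rank 4), 63.69 (rank 5) and 607.8 (rank 4) in the same lists.

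The gene with the separate leader was the lowest of the 4 in both replicates. At sls-2.8 the signal value was 275.8 (rank 5) in replicate 1, 37.31 (rank 19) in replicate 2 and 312.0 (rank 5) in the IDR list. Relative to sls-2.8, sls-2.4 was 2.6 times as high in replicate 1 and 2.47 times in replicate 2, sls-2.1 was 2.06 and 1.74 times, and sls-2.2 was 2.0 and 1.71 times. The order of the 4 genes was thus the same in both replicates. As shares of the highest peak in the list, sls-2.4 reached 55.5% in replicate 1 and 63.98% in replicate 2, sls-2.1 43.9% and 45.0%, sls-2.2 42.7% and 44.2%, and sls-2.8 21.3% and 25.9%. As a description of 2 values per gene, the ranges of sls-2.1 and sls-2.2 overlapped, with sls-2.1 the higher within each replicate, and the ranges of the other neighbours in the order did not overlap. Against the median peak of their list, the 4 genes stood 62.7, 49.6, 48.2 and 24.1 times as high in replicate 1 and 14.4, 10.1, 9.93 and 5.82 times as high in replicate 2, in the order sls-2.4, sls-2.1, sls-2.2, sls-2.8. Replicate 2 spanned a narrower range of heights throughout, from 4.394 to 144.2, against 7.089 to 1292 in replicate 1. Read depth is unknown for both libraries, and the part of depth in this difference was not tested.

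**Figure D1:**
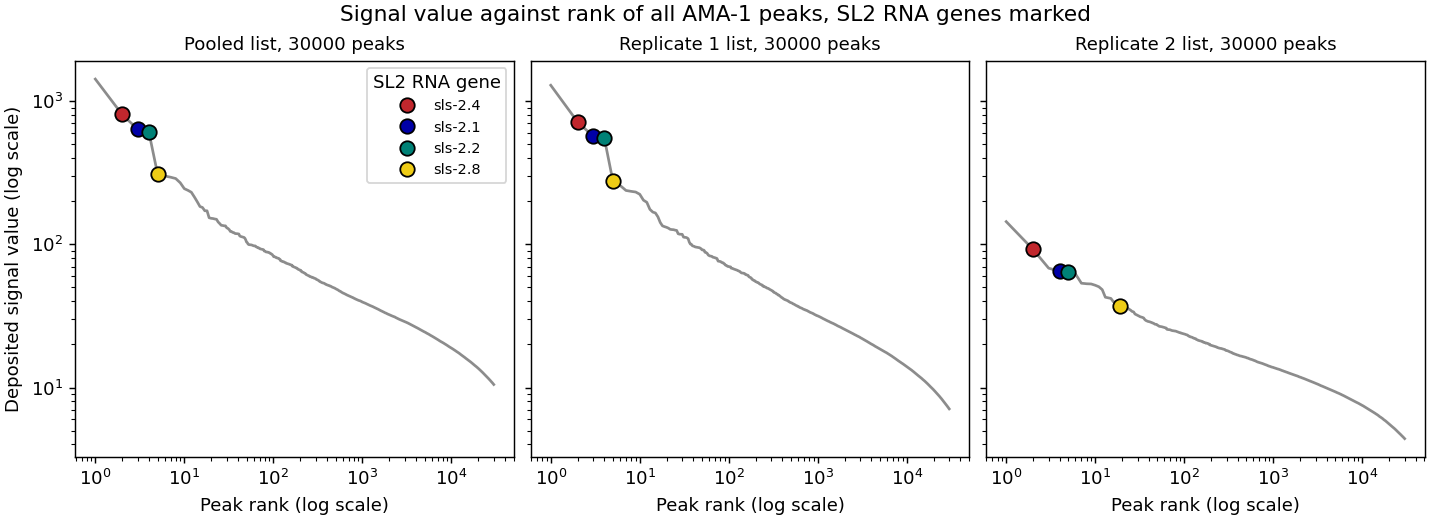
Signal value (log scale) against peak rank (log scale) for all 30000 peaks of the pooled, replicate 1 and replicate 2 lists (grey line), with sls-2.4, sls-2.1, sls-2.2 and sls-2.8 marked. The 4 genes fill ranks 2 to 5 of the pooled list and of replicate 1, and in replicate 2 the first 3 stand at ranks 2, 4 and 5 and sls-2.8 at rank 19.

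The heights just inside and just outside the chosen genes lay close together at the lower end. The lowest gene taken, sls-2.8, had 312.0 at rank 5, and the peak at tos-1, a protein-coding gene, had 300.4 at rank 6, which makes the first 3.89% higher. In replicate 2 their order was the other way round, with sls-2.8 at rank 19 and 37.31 and tos-1 at rank 13 and 42.73. A wider step lay inside the set, where sls-2.2 was 1.95 times as high as sls-2.8. Above the set stood cel-mir-52, a microRNA gene, with 1428, which was 1.77 times the height of sls-2.4. Ranks 7 to 10 went to sup-6 (an snRNA gene in the annotation, 294.6), C30E1.9 (a non-coding RNA gene, 288.3) and mdt-26, which encodes a subunit of the Mediator complex and held a pair of peaks (269.4 and 245.0). The peak of rank 7 at sup-6 had no replicate 2 peak over its summit.

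Few loci ranked as high in both replicates as the 4 genes did. Of the IDR peaks, 13 ranked 20 or better in each replicate, and 4 of these were the SL2 RNA genes, which the choice of the highest peaks favours. The other 9 included the peak at cel-mir-52 (rank 1 in both), tos-1 (6 and 13 in replicates 1 and 2), C30E1.9 (7 and 10) and the pair at mdt-26 (11 and 7, 12 and 6). The rest were sup-39 (16 and 8), a second peak at sup-6 (18 and 3), a peak on chromosome III (17 and 16) and a peak at the microRNA genes cel-mir-54 and cel-mir-55 (20 and 17). The peak on chromosome III had no gene within 250 bp, with piRNA genes left out of the search. The annotation classes sup-6 and sup-39 as snRNA genes, like the SL RNA genes.

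The summit of the main peak lay, at each of the 4 genes and in every list, inside the gene, in the part behind the leader. In the IDR list the summit was 82 bp from the first base of sls-2.4, 86 bp in sls-2.1, 95 bp in sls-2.2 and 71 bp in sls-2.8, with a median of 84 bp. These summits lay 14 to 39 bp short of the last base of genes of 110 bp, or 111 bp for sls-2.8. Replicate 1 had the summits of the IDR list. Replicate 2 had them at 83 bp in sls-2.4, 56 bp in sls-2.1, 95 bp in sls-2.2 and 62 bp in sls-2.8, with a median of 72.5 bp. Between replicates the summit thus moved by 30 bp in sls-2.1 and by no more than 9 bp in the other genes. Relative to the first letter of TTTTGG in the gene, the IDR summits lay 11 bp downstream in sls-2.4, 15 bp in sls-2.1 and 24 bp in sls-2.2, and 2 bp upstream in sls-2.8.

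The peaks themselves were wide against the genes. The IDR peak was 459 bp wide at sls-2.4, 369 bp at sls-2.1, 366 bp at sls-2.2 and 274 bp at sls-2.8, where the usual width in that list was 350 bp. In replicate 1 the widths were 478, 426, 459 and 300 bp in the same gene order, and in replicate 2 all 4 were 340 bp, the width of nearly every peak there. The peak at sls-2.4 covered chrI:4172054-4172512, that at sls-2.1 chrII:5844777-5845145, that at sls-2.2 chrII:5543462-5543827 and that at sls-2.8 chrIII:12250396-12250669. Each therefore ran over the gene on both sides, and the position of the summit within a gene of this size is finer than the width of the peak.

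**Figure D2:**
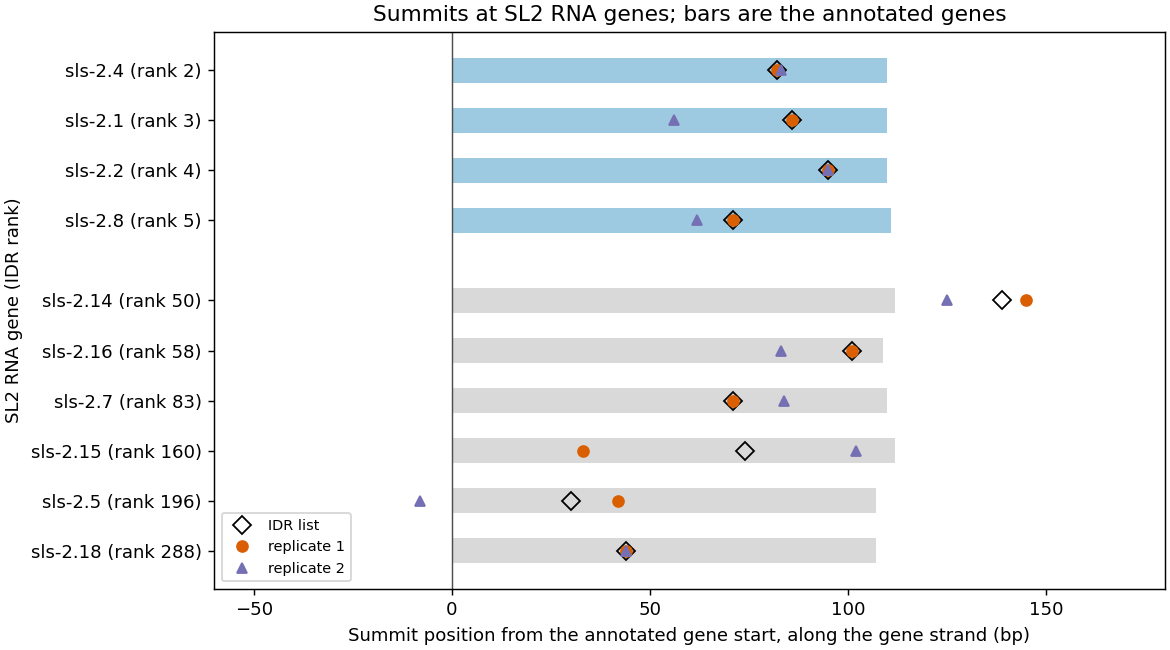
Position of the summit from the annotated gene start (bp, along the gene strand) in the IDR list (diamonds), replicate 1 (circles) and replicate 2 (triangles) at the 4 genes of the highest peaks (blue bars, the annotated genes) and at the 6 other SL2 RNA genes with an IDR summit within 250 bp (grey bars), ordered by IDR rank. All summits at the first 4 lie between 56 and 95 bp, inside the gene, and those at the other 6 spread more widely.

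Around the 4 genes no further IDR peak was listed within 1 kb, and few weaker peaks were. The IDR list and replicate 1 each had 4 summits within 1 kb of them, 1 per gene, whereas the pooled list had 5 and replicate 2 had 6. The additional pooled summit lay 708 bp downstream of the start of sls-2.2 (rank 20071, signal value 13.61), which is 33 bp upstream of the start of sls-2.3. Replicate 2 had one at nearly the same place, 694 bp from the start of sls-2.2 (rank 5976, 8.86), and another 263 bp from the start of sls-2.8 (rank 10217, 7.449), beyond the end of the gene. At this height there was thus 1 listed summit at each gene.

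The pair of sls-2.2 and sls-2.3 had unequal listed heights at near-identical copies. They lie on opposite strands with 456 bases between them, share the leader and the 15-letter upstream word, and differ at 3 bases of the gene. Upstream they were less alike, with 70.6% identity over 100 bases and 61.9% over 200. The signal value at sls-2.2 was 44.7 times that at sls-2.3 in the pooled list, 607.8 against 13.61, and 7.19 times in replicate 2, 63.69 against 8.86. Replicate 1 listed no peak within 250 bp of sls-2.3. The peaks set against sls-2.2 were weak, with 13.61 below the pooled median of 15.77 and 8.86 at 1.38 times the replicate 2 median. Both summits lay outside sls-2.3, 33 bp upstream of its start in the pooled list and 19 bp upstream in replicate 2. The ratios therefore rest on values near the median of relaxed lists.

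Copies so alike raise the question of where a read can be placed. In the reference genome, 21 of the 80 words of 31 bases within sls-2.4 had further copies, as did 49 of 80 in sls-2.1, 40 of 80 in sls-2.2 and 0 of 81 in sls-2.8. In sls-2.3 it was 49 of 80. The words with 2 to 4 copies covered the promoter-proximal side and ended at base 51 of sls-2.4, base 79 of sls-2.1, base 70 of sls-2.2 and base 79 of sls-2.3. The IDR and replicate 1 summits of sls-2.4, sls-2.1 and sls-2.2 lay behind these ends, in the part whose words occur once. In replicate 2 this held for sls-2.4 and sls-2.2, whereas the summit of sls-2.1, at 56 bp, lay within the repeated stretch. In the 250 bases upstream and the 250 bases downstream of each of these 5 genes, each taken as a whole window without the gene, all words occurred once. The authors' handling of reads with several equal placements was not given in the sources used here, and how the heights are divided among sls-2.4, sls-2.1, sls-2.2 and sls-2.3 is uncertain. The value at sls-2.8 does not share 31-base words with any other place.

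**Figure D3:**
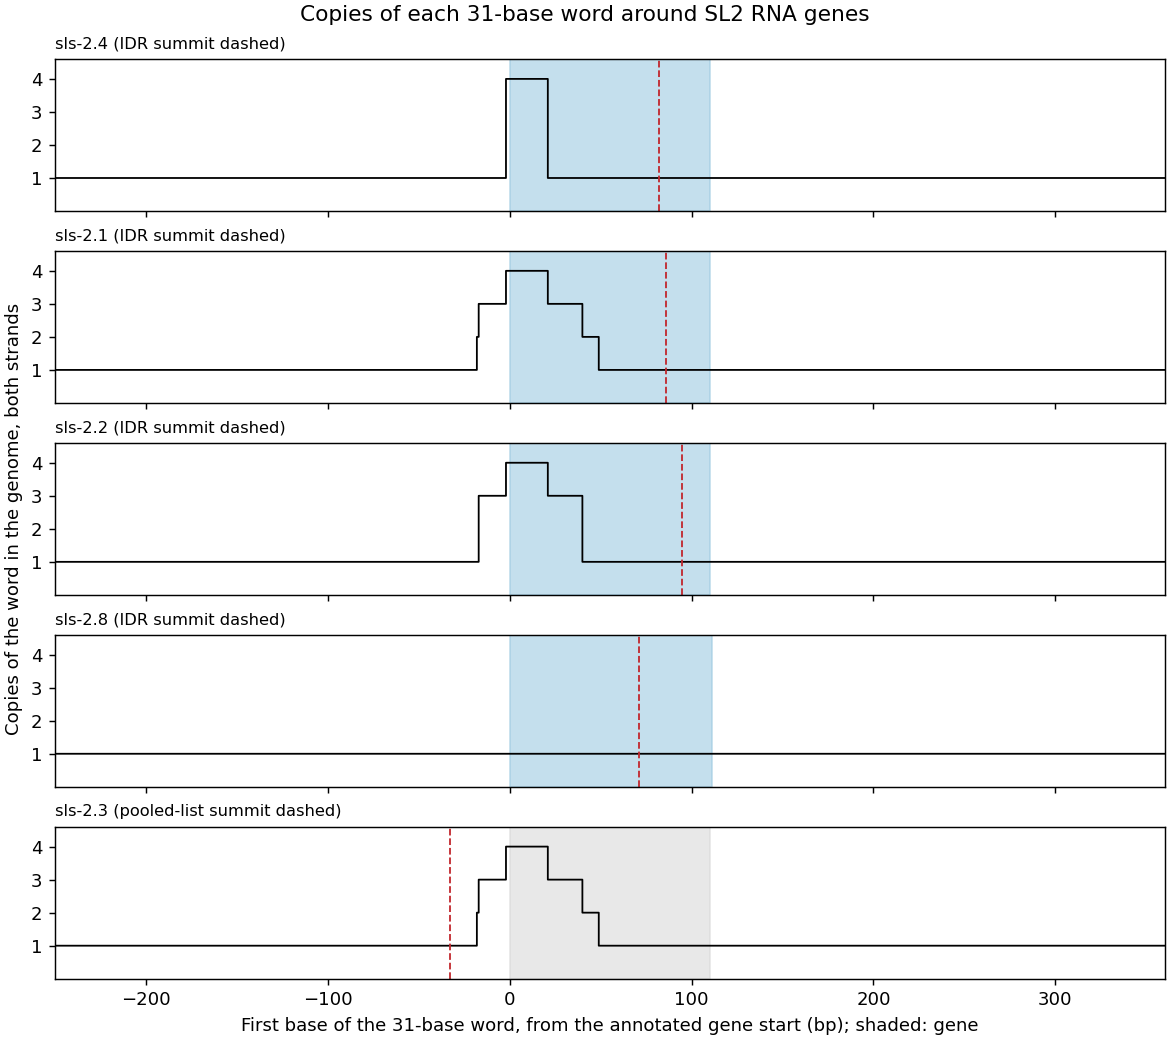
Number of copies in the genome, over both strands, of the 31-base word starting at each position from 250 bp upstream of the gene start to 360 bp downstream of it, for the 4 genes of the highest peaks and sls-2.3, with the gene shaded and the summit dashed (IDR list, or pooled list for sls-2.3). Words with up to 4 copies stop before the IDR summit in sls-2.4, sls-2.1 and sls-2.2, and sls-2.8 has none. The replicate 2 summit of sls-2.1, at 56 bp, is not drawn and lies before base 79, where they stop.

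The other SL2 RNA genes were lower, which follows from the choice of those at the highest peaks, and 8 of the 14 had no IDR summit within 250 bp. Counting summits within 1 kb in the IDR list, all 4 genes chosen and 7 of the 14 other SL2 RNA genes had one, 11 of 18 in all (61.1%), against 1.93% of all annotated genes. One of the 7, sls-2.3, counted only through the summit of sls-2.2. Within 250 bp it was 4 of 4 and 6 of 14, 10 of 18 in all (55.6%), against 1.27% of all genes. Among the 476 highest peaks of replicate 2 alone it was 4 of 4 and 3 of 14, 7 of 18 in all (38.9%), against 1.22% of all genes, and replicate 1 alone gave the SL2 counts of the IDR list. The counts of 4 of 4 are fixed by the choice of the genes, which raises each share over all 18. The other 14 alone gave 42.9% within 250 bp in the IDR list and 21.4% within 250 bp in replicate 2. These shares do not include the chosen genes or their summits. The 7 of 14 within 1 kb is not free of the choice, because sls-2.3 is counted there through a chosen gene. Several of the other genes with a summit lie close together inside a shared protein-coding gene, so they are not all separate loci. Of the 99 genes annotated as snRNA genes that are no SL RNA genes, 9 (9.09%) had an IDR summit within 250 bp, among them mir-1831, which has the name of a microRNA gene.

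The 6 other SL2 RNA genes with an IDR summit of their own ranked from 50 to 288. They were sls-2.14 (rank 50, 103.8), sls-2.16 (rank 58, 98.55), sls-2.7 (rank 83, 88.44), sls-2.15 (rank 160, 71.64), sls-2.5 (rank 196, 66.48) and sls-2.18 (rank 288, 57.98). Among them, sls-2.5, sls-2.16 and sls-2.18 lie inside the protein-coding gene glr-2, and sls-2.14 and sls-2.15 inside W09D6.5. Between sls-2.14 and sls-2.15 there are 486 bases, between sls-2.5 and sls-2.16 837, and between sls-2.16 and sls-2.18 791. The summits are thus not all separate loci. Polymerase on these host genes cannot be told apart from that on the SL2 RNA genes. The lowest of the 4 chosen genes, sls-2.8, was 3.01 times as high as sls-2.14, where the choice by height fixes the direction. In replicate 1 these 6 ranked from 53 to 288, and in replicate 2 from 81 to 6540, so their place was far less settled between replicates. Only sls-2.16 (ranks 76 and 81) and sls-2.5 (ranks 288 and 190) stayed within 476 in both. Their IDR summits lay inside the gene in 5 of 6 cases, with a median of 72.5 bp from the first base (30 to 139 bp), and that of sls-2.14 lay past its end. At the 9 other genes annotated as snRNA genes, the summit was inside 3 genes, before the start of 2 and past the end of 4. They had 8 distinct summits, because the summit inside sup-39 was also counted as past the end of mir-1831. That entry of 22 bp has the name of a microRNA gene but is classed as an snRNA gene in the annotation.

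Of the remaining 8 SL2 RNA genes, 5 had a peak within 250 bp in the pooled list, at ranks 520 (sls-2.9), 1022 (sls-2.17), 8282 (sls-2.13), 12570 (sls-2.10) and 20071 (sls-2.3). In that order these peaks stood 3.07, 2.49, 1.29, 1.09 and 0.863 times as high as the median pooled peak. None of the 4 lists had a peak within 250 bp of the other 3, sls-2.6, sls-2.11 and sls-2.12. Replicate 1 had such a peak at 9 of the 14 other genes and replicate 2 at 9. These lists of 30000 peaks are relaxed, and the share of all annotated genes with a peak in them was not computed. The counts in them are therefore not set against a background. Carrying the leader of the highest genes did not come with a high peak in every case, since 3 of the 4 genes with it had an IDR summit and sls-2.3 had none. Among the 14 other genes, the share of 31-base words without a further copy had a median of 88.9% (21.2 to 100%), against a median of 61.9% (38.8 to 100%) in the 4 chosen genes.

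**Figure D4:**
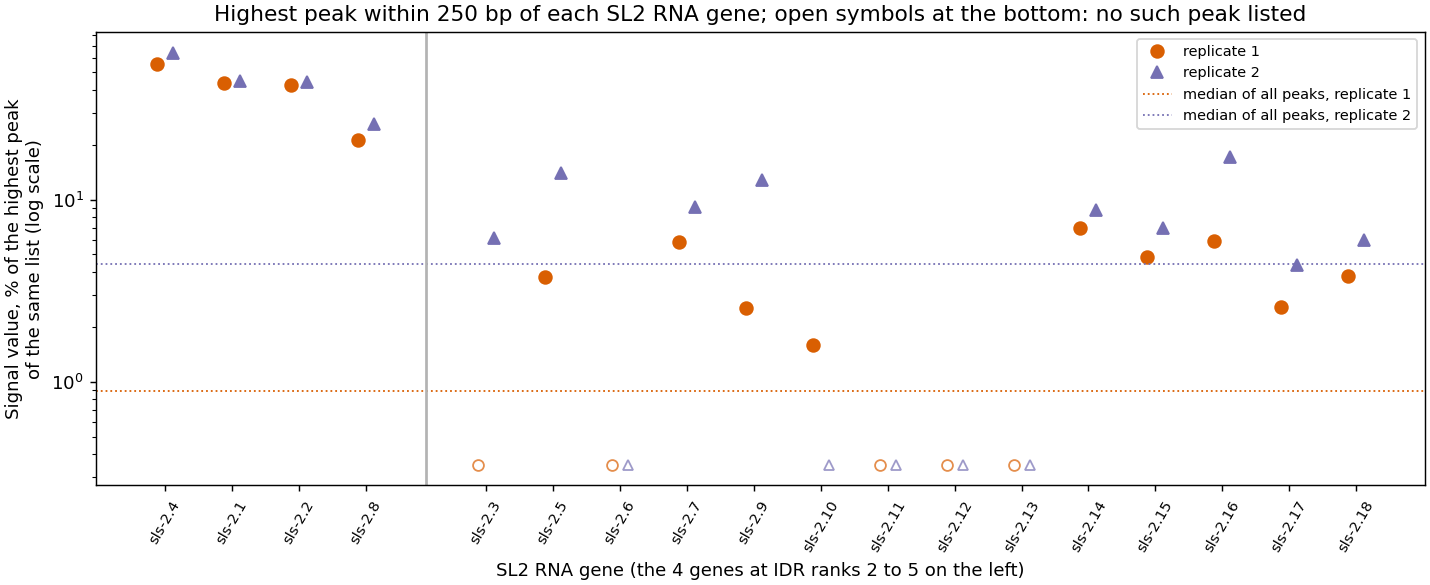
Signal value of the highest peak within 250 bp of each of the 18 SL2 RNA genes, as % of the highest peak in the same list (log scale), in replicate 1 (circles) and replicate 2 (triangles), with the median peak of each list as a dotted line. The 4 genes on the left reach 21.3 to 63.98%, and the others stay below them in both replicates, which the choice of the 4 by height favours. Open symbols at the bottom stand for genes with no peak listed.

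No IDR peak was listed at the SL1 RNA genes. None of the 12 annotated copies, all on chromosome V, had an IDR summit within 1 kb, against 1.93% of all annotated genes. At that share, a count of 0 among 12 genes does not set them apart from other genes. No 31-base word of these genes occurred once in the genome, and over the gene with 250 bases on each side the share had a median of 0% (0 to 20.4%). Whether these repeated words bear on the absence of listed peaks was not tested.

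Neighbouring genes lay close to several of the peaks. The gene sls-2.1 stands alone between the ends of nep-25, 245 bp away, and ZK1248.17, 280 bp away, with no gene annotated over it. By contrast, sls-2.8 lies 85 bp from the start of Y75B8A.23 and 301 bp from the start of tim-1, the C. elegans homologue of the timeless gene. For sls-2.4 the nearest protein-coding genes are R12E2.11, whose end is 123 bp away, and egg-5, which acts in the egg-to-embryo transition and whose start is 617 bp away. For sls-2.2 they are ins-13, an insulin-like peptide gene with its end 805 bp away, and C17C3.24, with its start 1813 bp away. Antisense non-coding RNA genes are annotated over sls-2.4 (R12E2.18), sls-2.2 (C17C3.23) and sls-2.8 (Y75B8A.49). ChIP-seq does not read the strand of transcription, so polymerase on these and on the SL2 RNA genes cannot be told apart. By contrast, sls-2.1 had its peak with no such gene annotated. The IDR peak at sls-2.4 also ran over the end of R12E2.11, and that at sls-2.8 over the start of Y75B8A.23. Polymerase on these protein-coding genes is not separated from that on the SL2 RNA genes either.

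Genes for the machinery that makes and uses SL2 RNA were described in 6 lists. A gene had a summit where one lay from 500 bp upstream of its start to its end, which held for 3 of the 42 listed genes found in the annotation, against 1.52% of all protein-coding genes. The 4 genes listed under the SL snRNP and trans-splicing, sna-1, sna-2, sut-1 and sut-2, had none. The cap hypermethylase gene tgs-1, 7 genes listed for the SNAP complex and 11 for the Integrator complex, which cleaves the 3′ ends of snRNAs, had none either. Of the 7 Sm core protein genes, snr-4 had an IDR summit (rank 33, 122.9) at -388 bp from its start, which also lay within 250 bp of the snRNA gene T11F9.15. Of the 12 genes for cleavage and polyadenylation factors with the CstF subunits, whose complex is tied to SL2 trans-splicing, 2 had one: suf-1, the CstF-77 gene (rank 161, 71.53, at -109 bp from the start), and pcf-11 (rank 308, 56.78, at 534 bp). In replicate 2 these peaks of suf-1 and pcf-11 ranked 2713 and 2061, so neither was among the highest there. All 3 signal values lay below that of sls-2.8, at 312.0 the lowest of the 4 chosen genes, and snr-4 stood above sls-2.14 (103.8), the highest of the other SL2 RNA genes.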

How the data were processed

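ChIP-seq peak lists of 2 biological replicates were used. Per a text file deposited by the authors, they made a relaxed list for each replicate from its alignments and 1 further file, a pooled list from both replicates' alignments, and an IDR list from these 3. Aligner, caller, IDR threshold and depth were not given in the sources used here. Thus no interval covers counting error. The authors' deposited signal value is a score used for ranking. The deposited −log10 q-value was shared at its highest value by 342 pooled peaks and served only as an alternative ranking, with ties ordered by signal value. The other value used is the summit position deposited by the authors.

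From these lists, summits within 1 kb of each gene were found, or within 250 bp where a peak is called the gene's own. Genes came from Ensembl release 115 and sequences from the RefSeq genome of the same build, ce11, with 1-based coordinates. Only the ce11 lists were used. Identity is matches over columns of a global alignment (Biopython 1.88). Computations used Python 3.11.15 and were tested on simulated data. The genes and lists were chosen with earlier results of these data known, and with 1 group of 2 samples no test was made. Genes named beyond the SL2 RNA genes are those at IDR ranks 1 to 10, those ranking 20 or better in both replicates, the nearest protein-coding genes and listed genes with a summit. Sequence of sls-2.4 is not reported here. Nothing beyond the labels says how separate the biological replicates were.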

Additional observations from a re-analysis of the deposited data

How the results depend on the processing

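The count of the 4 genes among the 10 highest peaks was 3 to 4 with 1 replicate at a time. Replicate 2 alone gave 3 because sls-2.8 fell to rank 19. The count was 4 with other windows, with peak intervals and with ranking by q-value, but these settings could not change it. All 4 summits lie inside their genes, and the 4 peaks share the highest −log10 q-value, where ties were ordered by signal value. SL2 RNA genes with a summit numbered 9 to 12 with 1 choice changed at a time, against 11, and 7 where replicate 2 alone and the 250 bp window were combined. The median summit distance from the gene start, 84 bp, was 72.5 to 84 bp with 1 replicate at a time, 72.25 bp from the middle of the peak interval and 29.5 bp from the middle of the gene. The cause of the first shift was not tested, and the last follows from the other zero point. Mean gene identity, 83.0% over the 6 pairs of the 4 genes, was 77.6% over all SL2 pairs and 93.3% without sls-2.8, both chosen after seeing the data. Identity of the 100 bases upstream, 62.2%, was 63.3% over 50 bases and 57.7% over 200 bases, and the median share of words found once, 61.9%, was 57.0% with 25-base and 81.2% with 50-base words. No paired analysis was possible because both replicates belong to 1 group and no result comes from a test. Depth is unknown, so a peak missing from a list does not show that polymerase was absent.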
